A study of Homo sapiens with 3 samples.

Results

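The respiratory chain of the inner mitochondrial membrane is built from subunits encoded in the nucleus and a smaller set encoded in the mitochondrial genome. Complex I (NADH dehydrogenase) and complex II (succinate dehydrogenase) pass electrons to ubiquinone, complex III passes them on to cytochrome c, and complex IV passes them to oxygen. Complexes I, III and IV pump protons, and complex V (ATP synthase) uses the proton gradient to make ATP. Most subunits are needed at fixed proportions within a complex, and a few exist as a widely expressed form and a form of particular tissues.

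The nuclear-encoded subunits were chosen by name, from protein-coding genes of GENCODE whose symbol belongs to the NDUFA, NDUFB, NDUFC, NDUFS and NDUFV series, SDHA to SDHD, the UQCR series and CYC1, COX4 to COX8, or the ATP5F1, ATP5M and ATP5P series. This gave 87 of 61193 genes, with 38 in complex I, 4 in complex II, 10 in complex III, 17 in complex IV and 18 in complex V. The rule used names and no measured value. They lay on 22 chromosomes.

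RNA was measured in HEK293T, a cell line of human embryonic kidney origin that expresses SV40 T antigen. The 3 replicates shared 1 condition: cells grown in DMEM with 10% FBS, collected 24 h after 1500000 cells were seeded per flask, with 3000000 cells per sample. No other condition was analysed here, so values were compared between genes and between replicates and no test between groups was made. The libraries were QuantSeq 3′ mRNA-seq libraries, in which reads come from near the 3′ end of a polyadenylated RNA, although the labels name the molecule as genomic DNA. A bulk library of this kind cannot tell apart fewer cells with a transcript from less transcript per cell.

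The replicates held 7019253, 6262175 and 8521624 counts. A count of 0 allows up to 3 counts, which is 0.352 to 0.479 counts per 1000000 (CPM), and these limits cover counting error only. The share of counts on the mitochondrial genome differed between the libraries, at 9.59%, 5.70% and 25.8%, and replicate 3 stood apart by it. Of the HEK293T markers examined, LIN28B had a mean of 40.8 TPM (count over transcript length, rescaled to 1000000 per library), PAX2 8.96 TPM and KRT8 1.35 TPM, NEFH had 7 to 11 counts and VIM 0 to 6, and NEFL, NEFM and KRT18 had no count. Of 5 markers of other cell types, PTPRC, ALB and MYH6 had no count, CKM had 1 to 4, and COL1A1 had 632 to 1129.

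The members together held 79562, 73799 and 91185 counts in replicates 1, 2 and 3. This was 1.13% ± 0.0545 (SD, n = 3) of all counts, 1.32% ± 0.111 of the counts outside the mitochondrial genome and 2.67% ± 0.322 of TPM. The counts were concentrated in few genes: 5 members held 82.3% of them, and 8 members had at least 1000 counts in every replicate. Of 87 members, 44 had more than 3 counts in every replicate (50.6%), against 39.5% of 19926 protein-coding genes. A mean TPM of at least 1, taken as expressed, was reached by 45 members (51.7%), against 38.2% of protein-coding genes. At or above the third quartile of expressed genes, 24.1 TPM, stood 15 members (17.2%), against 12.5%. No count in any replicate was found for 21 members (24.1%), against 36.5%. A total of 36 members had at most 3 counts in each replicate, and the other 7 crossed that floor in some replicates only.

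The median over the 87 members was 1.15 TPM, against 0.195 TPM over protein-coding genes, and the single replicates gave 1.70, 1.05 and 1.14 TPM. TPM divides by transcript length, and the canonical transcripts of members were shorter, with a median of 756 bases against 2890. Length enters the TPM thresholds above in the same way. In counts, the median of the gene means was 6 for members and 1.67 for protein-coding genes. The complexes differed in how many of their members were counted. In complex III, 8 of 10 members exceeded 3 counts in every replicate and the median was 53.1 TPM ± 16.6 (SD of the replicate medians, n = 3). In complex II, 3 of 4 did, with a median of 9.21 TPM ± 2.31. The medians of complex I (0.917 TPM ± 0.166, 18 of 38 members above 3 counts), complex V (1.18 TPM ± 0.102, 9 of 18) and complex IV (0.581 TPM ± 0.277, 6 of 17) lay at about 1 TPM or below. The medians of complexes III and II each stayed above those of the other complexes in every replicate. The complexes also differed in how often listed transcripts share the 3′ end of a member, as given below. Without replicate 3, the medians were 61.6 TPM for complex III, 10.5 for complex II, 1.17 for complex V, 0.902 for complex I and 0.578 for complex IV. Without replicate 1, that of complex IV was 0.293 TPM. Where subunits of 1 complex are compared below, the scale is TPM, the count divided by transcript length and rescaled to the library.

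**Figure D1:**
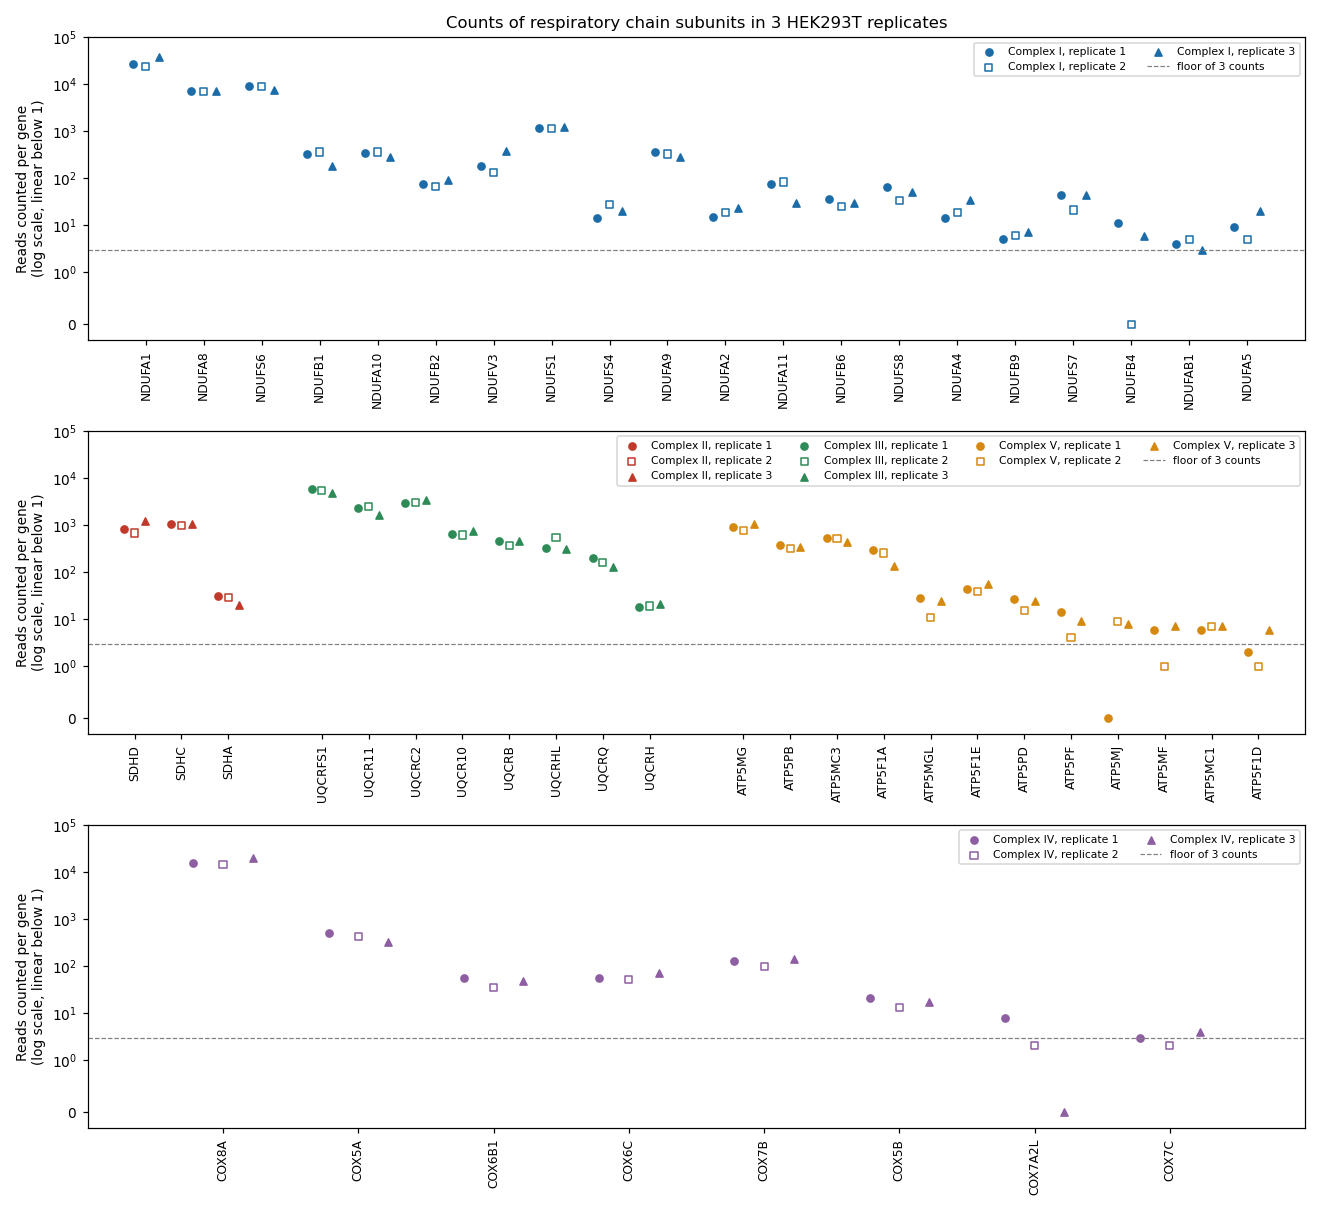
Reads counted per gene for the 51 members with more than 3 counts in at least 1 replicate, in order of mean TPM within each complex, with 1 point for each replicate and a dashed line at the floor of 3 counts. The vertical axis is logarithmic above 1 count and linear below it. Within each complex the counts fall from a few genes with more than 100 counts toward the floor, and NDUFA1 and COX8A have the most counts.

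Complex I was led by supernumerary subunits. NDUFA1, an accessory subunit of the membrane arm (ENSG00000125356, GRCh38 chrX:119871832-119876662, plus strand), had 27055, 23986 and 37474 counts in replicates 1 to 3. Its mean was 14123 TPM ± 758 (SD, n = 3), which was 78.8% of the TPM of complex I. Replicate 3 was the highest in counts and the lowest in TPM, 13346 against 14162 and 14860. NDUFA8, an accessory subunit that faces the intermembrane space (ENSG00000119421, chr9:122144058-122159779, minus strand), had 7288, 7052 and 7345 counts and 1885 TPM ± 469. NDUFS6, a zinc-binding subunit of the peripheral arm (ENSG00000145494, chr5:1801407-1816048, plus strand), had 8950, 8872 and 7379 counts and 1661 TPM ± 575. The TPM of NDUFA8 and NDUFS6 overlapped between replicates, although with the shorter GENCODE length NDUFS6 stood at 3467 TPM ± 1198. NDUFB1, an accessory subunit of the membrane arm, followed with 325, 361 and 182 counts and 120 TPM ± 65.6, and replicate 3 lay below both other libraries.

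The core subunits of complex I described here, which apart from NDUFS3 carry the flavin or iron-sulfur clusters, lay mostly near 0. NDUFS1, the largest of them and a carrier of iron-sulfur clusters, was the highest with 1189, 1144 and 1242 counts and 21.7 TPM ± 4.36. NDUFS8 had 66, 33 and 52 counts and NDUFS7 had 44, 21 and 43, and the most counted transcript of each is annotated as a retained intron. NDUFV1, the flavin-binding subunit, had 1, 0 and 2 counts, NDUFV2 had 3, 0 and 1, and NDUFS3 had 1, 0 and 0. The 9 members of complex I with no count were the accessory subunits NDUFA3, NDUFA6, NDUFA12, NDUFB3, NDUFB5, NDUFB7, NDUFC1, NDUFC2 and NDUFS5. Others had at most 3 counts in each replicate, among them NDUFA7, NDUFA13, NDUFB8, NDUFB10, NDUFB11, NDUFS3, NDUFV1 and NDUFV2.

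In complex II, the membrane anchors SDHC and SDHD, which bind ubiquinone, carried nearly all counts. SDHD (ENSG00000204370, chr11:112086824-112120016, plus strand) had 820, 679 and 1255 counts and 136 TPM ± 4.18, 88.1% of the TPM of the complex. SDHC (ENSG00000143252, chr1:161314381-161363206, plus strand) had 1072, 991 and 1042 counts but 16.2 TPM ± 3.68. Its counts were of the same order as those of SDHD and its TPM was lower. The deposited length of its most counted transcript, by which TPM divides, is 13566 bases, against 1339 for SDHD. The GENCODE release used for names gives 1308 bases for that SDHC transcript. With GENCODE lengths, SDHC stood at 166 TPM ± 40.9 and SDHD at 136 TPM ± 4.31, the SDHD share was 44.8%, and the median of complex II was 69.2 TPM in place of 9.21, above the 51.7 TPM of complex III. The catalytic subunits were low. SDHA, which holds the flavin, had 31, 29 and 20 counts and 2.25 TPM ± 0.962, and SDHB, which holds the iron-sulfur clusters, had 0, 0 and 1.

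In complex III no gene dominated: its top member held 27.1% of the TPM of the complex, against 69.8% to 98.1% in the other complexes. This range rests on the deposited lengths. With GENCODE lengths the top member of complex II was SDHC at 54.5%, outside it. The Rieske iron-sulfur protein UQCRFS1 (ENSG00000169021, chr19:29205320-29213151, minus strand) had 5949, 5405 and 4927 counts and 374 TPM ± 117. The small subunit UQCR11 (ENSG00000127540, chr19:1597169-1605473, minus strand) had 2345, 2471 and 1634 counts and 361 TPM ± 157. The core protein UQCRC2 (ENSG00000140740, chr16:21953288-21983660, plus strand) had 2934, 3003 and 3429 counts and 359 TPM ± 79.9. The TPM of these 3 genes overlapped between replicates, so their order was not resolved. UQCR10 followed with 636, 617 and 760 counts and 151 TPM ± 25.7, then UQCRB at 66.3 TPM, UQCRHL at 40.0 TPM and UQCRQ at 23.2 TPM. The partner core protein UQCRC1 had 0, 0 and 2 counts and cytochrome c1, CYC1, had none, although both are part of the same complex as UQCRFS1 and UQCRC2.

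Complex IV was held almost entirely by COX8A, a small transmembrane subunit (ENSG00000176340, chr11:63974620-63976543, plus strand). It had 15649, 14370 and 19524 counts and 6831 TPM ± 841, 98.1% of the TPM of the complex. COX5A, a matrix-facing subunit, came next with 501, 434 and 328 counts and 77.7 TPM ± 30.7. COX6B1, which lies at the intermembrane side, had 55, 35 and 47 counts and 19.2 TPM ± 5.05. The lowest members were COX4I1, the large nuclear-encoded subunit, and its isoform COX4I2, both without a count, as were COX6A2, COX7A1, COX7B2 and COX8C. COX6A1, COX6B2 and COX7A2 had at most 3 counts in each replicate.

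Complex V was led by the membrane-part subunit g, ATP5MG (ENSG00000167283, chr11:118401346-118433278, plus strand), with 934, 770 and 1048 counts and 168 TPM ± 24.1, or 69.8% of the TPM of the complex. ATP5PB, the subunit b of the peripheral stalk, had 369, 321 and 347 counts and 27.5 TPM ± 6.71. In the catalytic head, subunit alpha ATP5F1A had 293, 256 and 137 counts and 9.71 TPM ± 5.13, while subunit beta ATP5F1B and subunit gamma ATP5F1C had none. ATP5PO, ATP5ME and ATP5MK also had no count. The c-ring, the rotor that protons turn, is made of 1 mature protein encoded by 3 genes. ATP5MC3 had 532, 519 and 440 counts and 20.0 TPM ± 6.85 (41.4 TPM with GENCODE lengths), ATP5MC1 had 6, 7 and 7, and ATP5MC2 had 1, 0 and 0.

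Several subunits have a form that is known from particular tissues, such as heart, skeletal muscle or testis. For COX6B1 and the testis form COX6B2, the first held 99.4% ± 0.130 (SD, n = 3) of the TPM of the pair. COX8A and COX7B held 100% of theirs, since COX8C and COX7B2 had no count. ATP5MG held 97.0% ± 1.03 against its copy ATP5MGL, which had 28, 11 and 24 counts. NDUFA4, named for complex I and since assigned to complex IV, had 14, 19 and 35 counts and NDUFA4L2, a form known from hypoxia that the naming rule does not cover, had 0, 0 and 3, so the NDUFA4 share of 91.9% ± 14.1 rested on few counts. In the pairs COX4I1 with COX4I2, COX6A1 with COX6A2 and COX7A2 with COX7A1, both genes had at most 3 counts in each replicate and no share was computed. For the hinge protein of complex III, the copy exceeded its source: UQCRHL had 326, 545 and 317 counts and UQCRH 18, 19 and 21, and the UQCRH share was 14.1% ± 3.77. The counts of UQCRH lay on a retained-intron transcript. Of the 31-base words of UQCRHL, 11.7% also occur in UQCRH. At the 3′ end of the canonical transcripts, 70.3% of the words of UQCRHL and 38.1% of those of UQCRH also occur in other genes. The gene that shares most is the other of the pair, so reads in those stretches cannot be told apart. The canonical UQCRHL transcript is not among those listed, and the counts of both genes lay on other transcripts. Whether their reads fell in those stretches was not tested.

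Many members at or near 0 had a 3′ end that several listed transcripts share. Reads of these libraries fall near the 3′ end, and the files list counts for each transcript separately, 663 for the members, of which 137 had a count. For each member, the 300 bases at the 3′ end of the spliced canonical transcript were examined for the share that lies in a single listed transcript of the same strand. In 23 members that share was 100%, and 21 of them exceeded 3 counts in every replicate, with a median of 346 counts per replicate. In 44 members it was 0%, and 14 of them exceeded 3 counts, with a median of 1.17. In the 20 between, 9 did, with a median of 5.67. The share was 100% in 7 of 10 members of complex III, 1 of 4 of II, 7 of 38 of I, 4 of 17 of IV and 4 of 18 of V. It was 0% in 3, 1, 22, 7 and 11 of them, in the same order. Its part in the differences between the medians of the complexes was not tested. The share was 100% for NDUFA1, NDUFA8, COX8A, UQCRFS1, UQCRC2 and UQCR11, and 66.0% for NDUFS6. It was 0% for ATP5F1B, ATP5F1C, CYC1, UQCRC1, SDHB and NDUFV1, and 8.0% for COX4I1. The same classes over all protein-coding genes are not given here, so the pattern is not shown to be particular to the members.

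Among the 14 members with a share of 0% that still exceeded 3 counts, the most counted transcript was the canonical one only for COX6B1. NDUFB1, with 182 to 361 counts, and NDUFV3, with 132 to 385, were the highest of them, and all counts of NDUFV3 lay on a transcript without a defined coding sequence. For NDUFS4, NDUFS7, NDUFS8, NDUFA5, UQCRH, ATP5PD and ATP5MC1, the most counted transcript was a retained intron. Over the 66 members with any count, the canonical transcript was the most counted one for 30. For 22 of the 66, transcripts annotated as protein_coding held less than 50% of the counts. Shares over all protein-coding genes are not given for comparison. In the opposite direction, NDUFA3 and the testis form COX8C had a share of 100% and no count. How reads shared by several transcripts were handled is not given in the sources used here, and its part in the counts of 0 was not tested.

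**Figure D2:**
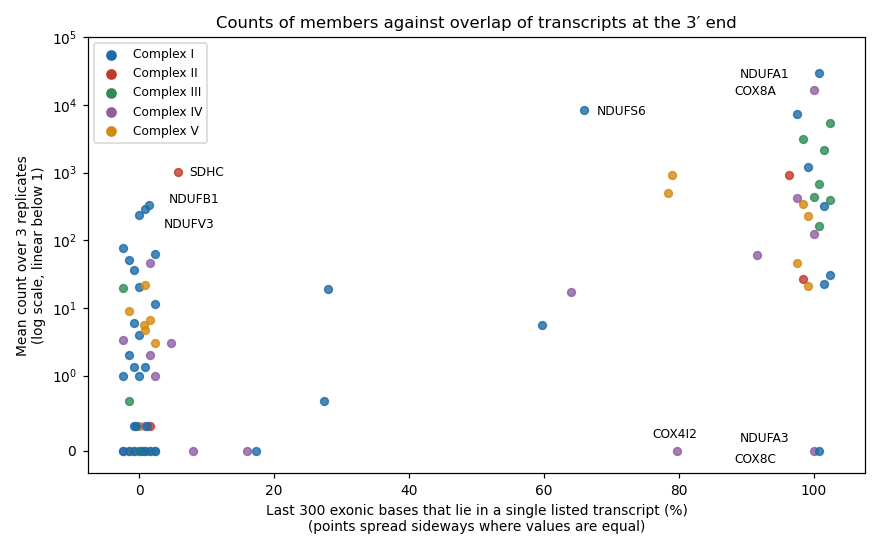
Mean count over the 3 replicates for each of the 87 members against the share of the 300 bases at the 3′ end of its canonical transcript that lies in a single listed transcript, coloured by complex. Of the 23 members at 100%, 21 have more than 3 counts in every replicate, whereas 14 of the 44 members at 0% do.

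Processed pseudogenes, copies of a spliced messenger RNA inserted elsewhere in the genome, were counted for many members. Of 184 pseudogenes named after 49 members, 83 had a count, with 3364, 2876 and 4122 counts in the 3 replicates. For 23 members the pseudogenes held more counts than the gene itself, and no such share over all genes is given here. For COX6C, a small subunit of complex IV with 57, 51 and 72 counts, the pseudogene COX6CP1 had 981, 796 and 1222. COX6CP1 (chr16:11903923-11904137) lies within GSPT1 on the same strand, with no exonic overlap recorded. Reads of COX6CP1 and of GSPT1 RNA that keeps this stretch cannot be told apart there. For NDUFB4, an accessory subunit of complex I with 11, 0 and 6 counts, NDUFB4P12 (chr4:43898962-43899351) had 928, 789 and 1053. NDUFB4P12 overlaps another annotated gene on its strand, also with no exonic overlap recorded. ATP5MC2, with 1, 0 and 0 counts, had a copy ATP5MC2P4 (chrX:42098754-42099173) with 247, 226 and 355. The pattern recurred for COX6A1, whose copy COX6A1P2 had 242, 195 and 318 counts, for ATP5F1E, whose copy ATP5F1EP2 had 170, 176 and 265, and for ATP5MK, whose copy ATP5MKP1 had 86, 71 and 104. With the pseudogenes added to their members, the median over the 87 members was 9.24 TPM in place of 1.15. The pseudogenes differed in how much sequence they share with the member. None of the 31-base words of COX6CP1 occurs in COX6C, whereas 73.0% of those of COX6A1P2, 48.3% of ATP5MKP1, 34.9% of ATP5F1EP2, 29.2% of NDUFB4P12 and 20.0% of ATP5MC2P4 occur in their member. For the latter, whether reads came from the pseudogene or from the messenger RNA of the member was not tested.

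**Figure D3:**
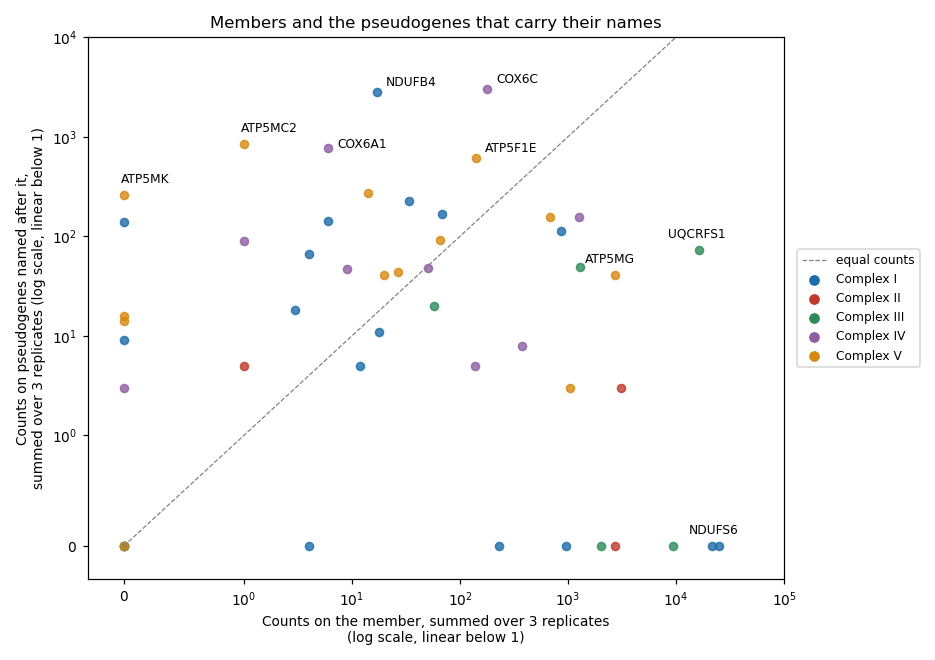
Counts on a member and on the pseudogenes named after it, each summed over the 3 replicates, for the 49 members with such pseudogenes. Both axes are logarithmic above 1 count and linear below it, and the 23 points above the dashed line of equal counts include COX6C, NDUFB4, ATP5MC2, COX6A1, ATP5F1E and ATP5MK.

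The 13 protein-coding genes of the mitochondrial genome, which encode the remaining subunits of complexes I, III, IV and V, were set beside the members. They held 455662, 209608 and 1696215 counts, 5.73, 2.84 and 18.6 times the counts of the 87 members. The ratio thus varied far more between replicates than the member counts did, and its mean was 9.06 ± 8.39 (SD, n = 3), or 4.28 without replicate 3. Within complex I the ratio was 4.67, 2.64 and 12.4, within complex III 3.42, 1.38 and 16.2, and within complex IV 8.14, 3.77 and 27.3. Within complex V it was 27.8, 11.9 and 130.3. In every complex replicate 2 was lowest and replicate 3 highest, the order of the mitochondrial share of each library. Complex II has no mitochondrially encoded subunit.

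For 26 members with at least 50 counts in every replicate, the spread between replicates was compared on both scales. On TPM the median coefficient of variation (CV) was 24.6%, against 23.5% over 5656 nuclear genes with the same minimum, and replicate 3 was the lowest library for 24 of 26 members (92.3%), against 81.6% of those nuclear genes. On CPM of the counts outside the mitochondrial genome, the median CV was 13.8%, against 13.6%, and replicate 3 lay below the mean of the others for 14 members and above it for 12 (46.2%), against 58.2% above it over those nuclear genes. Counting error alone gives a median CV of 4.66% for these members. On this second scale the members with the lowest CV were SDHC (1.23%), NDUFA8 (2.00%), NDUFS1 (2.46%), ATP5PB (3.66%) and UQCRC2 (8.0%). Those with the highest were NDUFV3 (55.3%), UQCRHL (37.1%), ATP5F1A (36.1%), NDUFB1 (35.2%) and SDHD (30.3%). The extremes of replicate 3 against the mean of the other libraries were a log2 ratio of -1.05 for ATP5F1A and 1.25 for NDUFV3. The members of 1 complex did not move together: in complex II, SDHD was higher in replicate 3 and SDHC was not, and in complex I, NDUFA1 was higher and NDUFB1 lower.

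**Figure D4:**
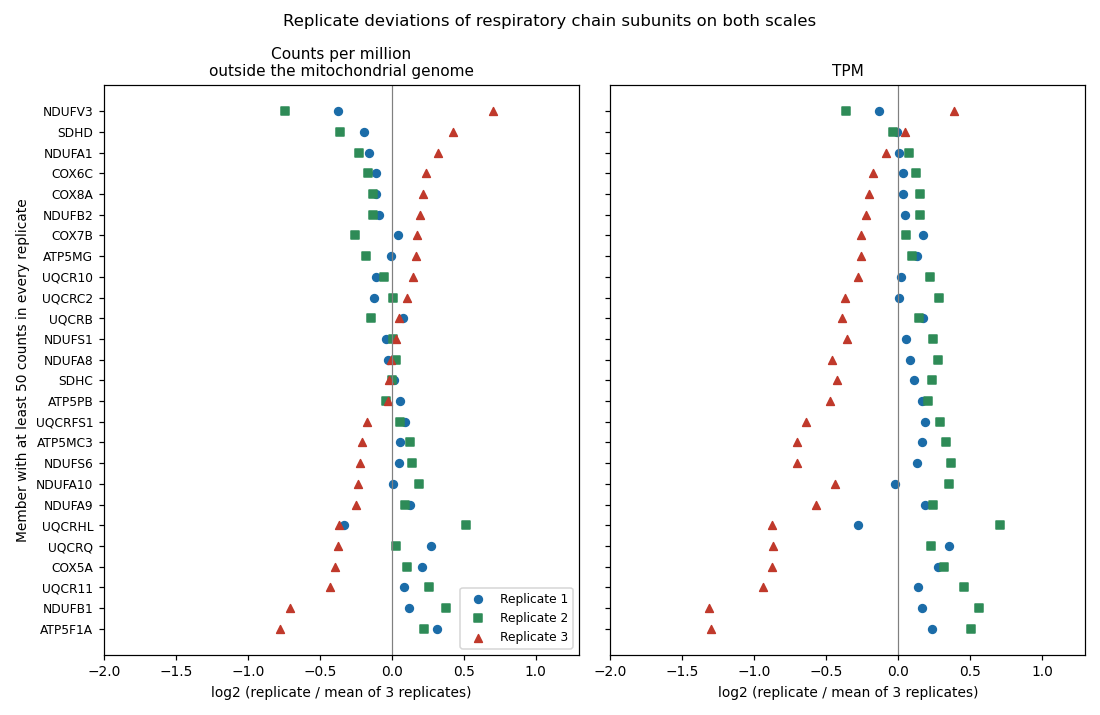
Deviation of each replicate from the mean of the 3 replicates, as a log2 ratio, for the 26 members with at least 50 counts in every replicate, on CPM of the counts outside the mitochondrial genome (left) and on TPM (right). Replicate 3 lies lowest for 24 of 26 members on TPM, and on the left below the mean of the other libraries for 14 and above it for 12.

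Assembly factors, which put the complexes together without being part of them, were examined from lists written from general knowledge. Above 3 counts in every replicate were 12 of 16 assembly factors of complex I and 3 of 4 of complex II. For complexes III, IV and V they were 4 of 6, 17 of 22 and 5 of 5, beside 44 of 87 members. Over all protein-coding genes the share was 39.5%. The list for complex V covers assembly and inhibitor genes, among them the inhibitor ATP5IF1. NDUFAF6 was the highest factor of complex I at 80.5 TPM and NUBPL the lowest at 0.290. SDHAF4 (128 TPM) and SDHAF2 (0.455 TPM) marked the ends for complex II, LYRM7 (141 TPM) and UQCC3 (0.154 TPM) for complex III, and TMEM70 (272 TPM) and DMAC2L (4.12 TPM) for complex V. For complex IV, COA3, a factor in the early steps of COX1 maturation, had 3604, 3116 and 3209 counts and 892 TPM ± 239, and SCO2 and COX14 had no count. Of 17 genes for electron carriers, ubiquinone synthesis and the entry of electrons, 8 exceeded 3 counts in every replicate, against 39.5% of protein-coding genes. Cytochrome c, CYCS, was the highest with 9833, 8124 and 7877 counts and 445 TPM ± 136, and COQ9 the lowest at 0.0949 TPM.

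Of 12 regulators of mitochondrial gene expression, 6 exceeded 3 counts in every replicate, against 39.5% of protein-coding genes. TFAM, which packages the mitochondrial genome, was the highest at 158 TPM ± 45.8. YY1 stood at 130 TPM ± 37.4 and PPARGC1A at 6.47 TPM ± 1.93. The activator NRF1 had 1, 1 and 0 counts, and GABPA, the DNA-binding subunit of the ETS factor GABP, and PPRC1 had none. All 13 protein-coding genes of the mitochondrial genome exceeded 3 counts, from 1379 TPM for MT-ND6 to 67790 TPM for MT-ND3.

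Nuclear genes of the respiratory chain are known for promoters with sites of NRF1, GABP and YY1, and the study itself was about i-motifs, 4-stranded structures of C-rich DNA. The promoters were therefore searched in RefSeq windows (GRCh38.p14) from 250 bases before to 50 after the transcription start, which matched 69 of the 87 members and 15842 protein-coding genes. The letters were GCATGCGC for NRF1, CCGGAAGT for the ETS factors, AAGATGGC for YY1, GGGCGG for SP1 and TATAAA for the TATA box, each on both strands. NRF1 letters were found for 14 members (20.3%), against 4.89% of protein-coding genes. ETS letters were found for 12 (17.4%), against 6.97%, and YY1 letters for 12 (17.4%), against 4.66%. At least 1 of these 3 was found for 31 members (44.9%), against 15.0%. SP1 letters stood at 62.3% against 64.3%, and TATA letters at 10.1% against 12.4%. The i-motif rule, 4 runs of at least 3 Cs with loops of 0 to 7 bases on either strand, was met by 12 members (17.4%), against 38.5%. Members share family names and some share ancestry, so these shares are descriptions without a test.

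The positions differed between motifs. Of 12 YY1 matches, 10 began 10 to 38 bases after the start and read forward with the gene. NRF1 letters were in 6 of 32 members of complex I and 4 of 13 of complex V, and in none of 7 of complex III, where ETS letters were in 3. The levels of members with a match were spread widely. NRF1 letters were in promoters of members from 0 TPM (ATP5F1C, ATP5ME, NDUFA6) to 1885 TPM (NDUFA8), and 7 of 14 exceeded 3 counts in every replicate. For ETS letters 10 of 12 did, for YY1 letters 5 of 12, and for the i-motif rule 6 of 12. Beside these, 50.6% of all members and 39.5% of protein-coding genes exceeded that floor. The stretches below are examples of NRF1 or ETS letters, in capitals, in members with at least 100 counts in every replicate. They are shown with up to 16 bases on each side, 5′ to 3′ on the strand of the gene. ETS letters of ATP5F1A and UQCRQ, also at that level, are not shown. Letters of NRF1 may overlap their own match on the other strand, which gives a longer run of capitals, and the reverse complement of the ETS letters reads ACTTCCGG.
SDHD, both motifs, chr11:112086747-112086818, plus strand: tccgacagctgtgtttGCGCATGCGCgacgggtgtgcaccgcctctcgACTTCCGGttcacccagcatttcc
NDUFS6, NRF1 letters, chr5:1801345-1801384, plus strand: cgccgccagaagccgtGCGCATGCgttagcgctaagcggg
COX8A, ETS letters, chr11:63974585-63974619, plus strand: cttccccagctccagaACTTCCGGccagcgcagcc
NDUFS1, ETS letters, chr2:206159579-206159618, minus strand: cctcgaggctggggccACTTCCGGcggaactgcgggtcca
UQCR11, ETS letters, chr19:1605556-1605595, minus strand: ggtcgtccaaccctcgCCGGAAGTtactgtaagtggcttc

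SDHD, the anchor of complex II at 136 TPM, was the member in this set with both motifs. The same letters in members without a count are shown for comparison.
ATP5F1C, NRF1 letters, chr10:7788139-7788176, plus strand: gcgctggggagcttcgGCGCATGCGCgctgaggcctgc
ATP5ME, NRF1 letters, chr4:674331-674370, minus strand: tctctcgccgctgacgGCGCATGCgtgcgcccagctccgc
NDUFA6, NRF1 letters, chr22:42090915-42090954, minus strand: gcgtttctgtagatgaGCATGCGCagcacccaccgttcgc
ATP5MK, ETS letters, chr10:103396612-103396651, minus strand: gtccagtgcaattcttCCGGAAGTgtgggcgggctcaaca

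The 10 bases in capitals of SDHD and ATP5F1C are the same, and the counts were 679 to 1255 for SDHD and 0 for ATP5F1C. These members also differed in the share of the 3′ end that lies in a single listed transcript. It was 96.3% for SDHD, 66.0% for NDUFS6 and 100% for COX8A, NDUFS1 and UQCR11. For ATP5F1C, ATP5ME and ATP5MK it was 0%, and for NDUFA6 0.333%. Its part in these counts was not tested. Stretches that met the i-motif rule, shown with the runs and their loops in capitals, also occurred in members of high and of no count.
NDUFS6, chr5:1801271-1801333, plus strand: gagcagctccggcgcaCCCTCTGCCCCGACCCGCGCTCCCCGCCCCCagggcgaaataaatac
UQCR11, chr19:1605478-1605530, minus strand: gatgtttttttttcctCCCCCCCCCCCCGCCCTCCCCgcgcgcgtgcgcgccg
COX8C, chr14:93347098-93347159, plus strand: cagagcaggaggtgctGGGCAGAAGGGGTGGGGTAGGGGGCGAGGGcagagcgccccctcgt

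In COX8C the C runs are on the other strand and appear as runs of G. NDUFS6 had 7379 to 8950 counts, UQCR11 1634 to 2471 and COX8C none. Stretches of ATP5F1A and NDUFA10, with at least 100 counts in every replicate, and of NDUFB7, without a count, also met the rule and are not shown. Folding of these stretches was not measured in the files used here.

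**Figure D5:**
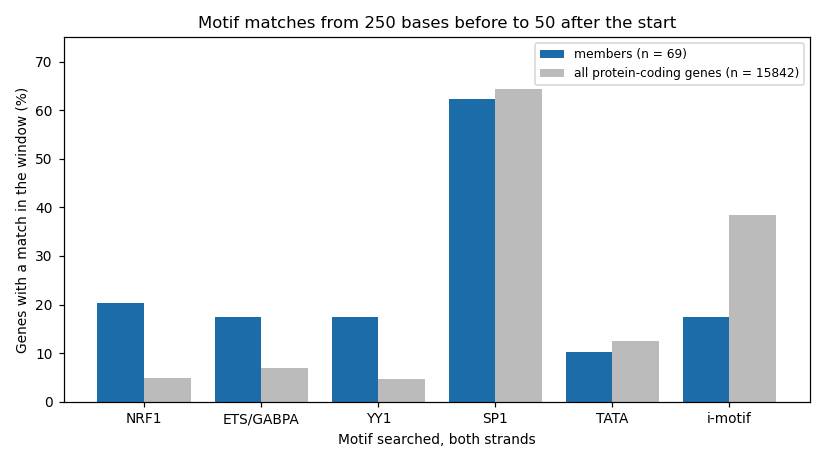
Share of genes with at least 1 match of each motif in the window from 250 bases before to 50 after the transcription start, for 69 members and 15842 protein-coding genes. The bars start at 0, and the members lie above the protein-coding genes for NRF1, ETS and YY1 letters and below them for the i-motif rule (17.4% against 38.5%).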

How the data were processed

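The processing notes of the submitters name Trimmomatic 0.38.0, HISAT2 2.2.1, featureCounts 2.2.1, as listed there, and hg38. The strand setting and the handling of reads shared by transcripts are not given in the sources used here. The authors deposited whole-number counts of 247541 transcripts without normalization, the transcript length in bases (unit other), and TPM, which the authors made as count over length rescaled to 1000000 per library. The TPM recomputed from the deposited counts and lengths differed by at most 1.75e-10. With 3′ libraries, division by length lowers long transcripts. Transcript identifiers were joined without version to GENCODE 44, which matched 223558, and counts and TPM were summed per gene. Lengths in the files and in GENCODE were equal for 616 of 663 member transcripts, which held 87.5% of member counts. The most counted transcript differed in length for NDUFS6, NDUFB11, SDHC, UQCRB and ATP5MC3.

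All 3 replicates formed a single group. The methods of the study call them independent biological replicates, and the labels do not name separate cultures. A floor of 3 counts, a mean TPM of at least 1 as expressed and quartiles over 13296 expressed genes were used. Words of 31 bases measured shared sequence. Promoter sequences are from RefSeq. The members and lists were chosen with earlier results of these data known, and the genes named are the 3 highest and 2 lowest of each complex, members at or under the floor (1 result is not reported here), paralog pairs, the c-ring, the ends of each list, the highest and lowest CVs, and members with most pseudogene counts. Further members were named after their values were seen. The sums were tested on simulated data. Other normalizations, thresholds, windows and each replicate left out were tried as alternatives. Python 3.11.15, numpy 2.4.6, pandas 2.3.3, scipy 1.17.1 and matplotlib were used.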

Additional observations from a re-analysis of the deposited data

How the results depend on the processing

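No paired analysis was possible because the series has 1 condition and no comparison between groups. Over 26 results, 137 alternative values were held against a limit, the SD between replicates, or 1.5 times for counts and for the median CV. For motif shares the limit was the exact 95% binomial interval over 69 member promoters, which takes members as the sampling unit. Of the 137 values, 93 stayed within their limit and 44 did not. The cause of the others was not tested beyond what each alternative changes by construction.

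When the mitochondrial genes were dropped before rescaling, the median over members was 1.62 TPM, and the medians were 1.31 for complex I, 12.6 for complex II, 72.4 for complex III and 1.67 for complex V. With transcripts of the biotype protein_coding only, they were 0.236 over members, 0.155 (I), 30.7 (III), 0.108 (IV) and 0 (V). With pseudogenes added to the member, they were 9.24 over members, 4.31 (I), 12.5 (IV) and 13.4 (V). Over members above the floor only, they were 17.9 over members, 9.58 (I), 16.2 (II), 109 (III), 17.9 (IV) and 5.27 (V). In CPM, not divided by length, the medians were 0.665 (I), 64.0 (II), 0.260 (IV) and 0.862 (V), so complex II then stood above complex III, which stayed within its spread. With GENCODE transcript lengths, an alternative chosen after seeing the data, the median of complex II was 69.2 TPM, and those over members and of the other complexes stayed within their spread.

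Leaving out each replicate gave medians of 0.991 to 1.56 TPM over members, 0.701 to 0.902 for complex I, 0.293 to 0.647 for complex IV and 0.960 to 1.17 for complex V. A mean of at least 10 TPM was reached by 25 members in place of 45. With any TPM above 0 as expressed, 28 members in place of 15 were in the high category. The members held 1.32% of counts outside the mitochondrial genome and 2.67% of TPM, in place of 1.13% of all counts. The median CV over the 44 members above the floor was 27.5% on TPM, 17.8% with mitochondrial genes left out, 17.9% with size factors, and 12.3% to 31.5% with each replicate left out, the lowest without replicate 3. In CPM, COX6B1 held 97.8% of its pair and UQCRH 4.94%. With 1 mismatch allowed, letters of NRF1 were found for 53.6% of members, ETS 43.5%, YY1 52.2%, SP1 100% and TATA 55.1%, against 33.1%, 35.2%, 26.6%, 94.9% and 58.4% of protein-coding genes. The counts of 3′ ends in a single transcript or in several moved by less than 1.5 times with 150 or 500 bases and, chosen after seeing the data, with transcripts of either strand.

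Where reads of a member would be counted, depth limits a count of 0 to an upper bound of 0.352 to 0.479 CPM. Whether this holds for members with a shared 3′ end was not tested. A total of 36 members lay at or under 3 counts in each replicate.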
